A study of Mus musculus with 11 samples.

Results

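The genes Fev, Lmx1b, Gata2, Gata3 and Insm1 encode transcription factors of the programme that makes a neuron serotonergic. Lmx1a, a close relative of Lmx1b, completes the 6 genes described here. Several of the 6 are also used by endocrine cells of the pancreatic islets. Their DNA methylation was read from 4 kinds of region. These were the 6 promoter rows and 6 gene rows that carry their symbols, plus CpG islands and 5-kb tiling windows (tiles). Every deposited island and tile that overlapped a locus was taken, the locus being the union of the promoter row and the gene row. This gave 17 CpG islands and 49 tiles, so that 78 of 324750 regions were members. Some 5-kb windows of the Lmx1b and Lmx1a loci were absent from the deposited data. The members were chosen by name and not by a cut on a measured value, but with earlier results of these data known.

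The mice were C57BL/6N wild-type newborns at postnatal day 0, and all samples were whole pancreas. The Amphetamine group held 5 pups (3 female, 2 male) of dams injected with amphetamine at 10 mg/kg on embryonic days 14.5, 15.5 and 16.5, and the Saline group held 6 pups (3 female, 3 male) of dams injected with saline. The labels do not tie pups to dams, so littermates may be among them and the p-values measure the spread between pups. Methylation was measured by reduced representation bisulfite sequencing (RRBS). The DNA was cut with MspI (at CCGG) and TaqI (at TCGA), so that CpGs near these sites were read, and bisulfite conversion showed which cytosines were methylated. Whole pancreas mixes acinar, ductal, endocrine, mesenchymal and blood cells, and in such a mixture a change in methylation within a cell type and a change in the share of that cell type cannot be told apart. The deposited tables used here hold DNA methylation and no RNA, so the tissue label was not checked by marker expression.

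In serotonin neurons of the hindbrain, the GATA factors Gata2 and Gata3 and the LIM-homeodomain factor Lmx1b act ahead of or beside the ETS factor Fev (also called Pet1), and together they switch on the genes for making, storing and taking up serotonin. Insm1, a zinc-finger factor, is needed for the differentiation of both monoaminergic neurons and islet endocrine cells, and Fev is also known from endocrine progenitors and beta cells. Lmx1a is the close relative of Lmx1b, known from midbrain dopamine neurons and from serotonin-producing cells of the gut. CpG-dense promoters of developmental factors of this kind are usually free of methylation, also in tissues where the gene is silent, while CpG-poor gene bodies are usually methylated.

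The sequences below show the places on which the results turn, 5′ to 3′ on the strand of the gene, with every CpG in capitals. Positions are those of mm10. The first set holds RefSeq promoters (GRCm38.p6, the mm10 assembly, from 250 bases before the start to 50 after it) of 3 genes whose starts were low in both groups. They held 25, 24 and 22 CpGs, against a median of 7 in the 32851 promoters of that table.
Fev, chr1:74885359-74885658, minus strand: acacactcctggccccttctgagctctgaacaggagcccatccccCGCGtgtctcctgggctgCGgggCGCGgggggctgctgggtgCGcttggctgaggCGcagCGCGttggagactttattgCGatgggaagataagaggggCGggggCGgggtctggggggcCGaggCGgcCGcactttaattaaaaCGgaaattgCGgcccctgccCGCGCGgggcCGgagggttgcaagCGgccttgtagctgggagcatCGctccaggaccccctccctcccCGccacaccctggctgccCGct
Lmx1b, chr2:33641049-33641348, minus strand: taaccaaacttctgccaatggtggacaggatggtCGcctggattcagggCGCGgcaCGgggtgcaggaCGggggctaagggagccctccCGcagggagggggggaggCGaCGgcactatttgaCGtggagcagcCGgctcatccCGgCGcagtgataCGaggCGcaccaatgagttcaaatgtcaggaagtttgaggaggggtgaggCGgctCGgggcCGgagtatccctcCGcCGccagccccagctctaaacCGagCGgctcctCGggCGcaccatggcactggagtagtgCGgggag
Gata3, chr2:9878551-9878850, minus strand: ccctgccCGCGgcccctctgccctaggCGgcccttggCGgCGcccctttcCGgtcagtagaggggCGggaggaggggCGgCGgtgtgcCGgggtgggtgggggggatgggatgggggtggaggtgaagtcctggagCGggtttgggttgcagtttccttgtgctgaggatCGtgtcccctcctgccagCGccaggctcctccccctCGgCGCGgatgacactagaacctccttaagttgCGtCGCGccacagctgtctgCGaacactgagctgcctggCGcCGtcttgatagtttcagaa
RefSeq promoters were matched for 5 of the 6 genes. Those not printed held 12 CpGs in Lmx1a, and 32 and 29 in Gata2.

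The second set holds sequence from the 3 regions with the smallest p of their kind. Each is a stretch of 300 bases outside annotated exons, chosen as the one with the most CpGs within 50 bases of a cut site. In Lmx1b, such a stretch of intron 2 is followed by the complete CpG island that lies near it in the same tile.
Gata3, upstream promoter row, chr2:9890275-9890574, minus strand: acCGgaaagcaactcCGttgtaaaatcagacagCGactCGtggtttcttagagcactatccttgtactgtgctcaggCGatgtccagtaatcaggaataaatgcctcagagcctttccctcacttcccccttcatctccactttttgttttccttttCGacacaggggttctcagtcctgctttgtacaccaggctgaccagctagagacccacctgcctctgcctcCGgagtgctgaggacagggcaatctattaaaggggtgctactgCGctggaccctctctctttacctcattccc
Gata2, CpG island in intron 1, chr6:88196377-88196676, plus strand: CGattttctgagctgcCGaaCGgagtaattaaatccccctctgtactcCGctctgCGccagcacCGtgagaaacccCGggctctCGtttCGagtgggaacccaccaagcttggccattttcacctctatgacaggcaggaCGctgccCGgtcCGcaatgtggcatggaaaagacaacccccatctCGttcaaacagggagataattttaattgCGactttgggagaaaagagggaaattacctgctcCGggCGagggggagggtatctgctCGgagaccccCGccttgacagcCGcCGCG
Lmx1b, tile outside the island, chr2:33616081-33616380, minus strand: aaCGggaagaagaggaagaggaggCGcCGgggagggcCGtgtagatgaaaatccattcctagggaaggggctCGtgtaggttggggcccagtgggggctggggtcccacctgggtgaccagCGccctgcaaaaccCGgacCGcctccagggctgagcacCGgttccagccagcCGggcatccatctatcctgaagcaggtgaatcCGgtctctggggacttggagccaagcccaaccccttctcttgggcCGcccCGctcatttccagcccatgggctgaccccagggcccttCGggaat
Lmx1b, CpG island of that tile, chr2:33616699-33616985, minus strand: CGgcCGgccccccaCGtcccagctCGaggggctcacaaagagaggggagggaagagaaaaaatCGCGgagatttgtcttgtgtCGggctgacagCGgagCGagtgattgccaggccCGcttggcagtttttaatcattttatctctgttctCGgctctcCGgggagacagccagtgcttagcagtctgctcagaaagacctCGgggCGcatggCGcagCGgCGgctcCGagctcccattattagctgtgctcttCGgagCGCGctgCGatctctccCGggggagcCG
The Lmx1b stretch held 14 CpGs and 5 CCGG sites, and the island held 24 CpGs and 3 CCGG sites. The Gata2 stretch held 21 CpGs and the Gata3 stretch 8.

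Coverage is read here as the reads over the CpGs of a region, although the sources used do not say how sites were combined. It was higher in the Amphetamine group. Its sum over all promoters was 1.24 times that of the Saline group, and the median promoter had 230.2 reads against 184.2. Its part in the results was not tested. All 6 promoter rows, all 6 gene rows, 16 of 17 CpG islands and 39 of 49 tiles had reads in all 11 mice.

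No region of the 6 genes passed the test between the treatments. With limma's moderated test on the deposited group means and SDs and Benjamini-Hochberg adjustment over the whole table, 0 of 6 promoters, 0 of 6 genes, 0 of 17 CpG islands and 0 of 49 tiles had an adjusted p under 0.05. Of all regions, those that passed were 0.0164% of promoters, 0.0116% of genes, 0.0135% of CpG islands and 0.0185% of tiles. At an unadjusted p under 0.05 there were 1 promoter (Gata3), 0 genes, 1 CpG island (Gata2) and 1 tile (Lmx1b). These counts stood against backgrounds of 4.11% of all promoters, 4.38% of genes, 4.1% of CpG islands and 4.4% of tiles. In none of the member regions read in all mice did the ranges of the groups fail to overlap. Over all such regions, groups were apart in 0.395% of promoters, 0.312% of genes, 0.443% of CpG islands and 0.351% of tiles. The adjusted p of the 78 regions ran from 0.923 to 1.

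The direction of the means was even in promoters and genes and uneven in CpG islands. Of the promoters, 3 had a higher mean in the Amphetamine group and 3 a lower one, and the gene rows divided in the same way. Of the 17 CpG islands, 14 had a lower mean in the Amphetamine group, while 49.9% of all islands with a difference had a higher one. The islands were read in the same mice and are not independent of each other, and 13 of the 14 differences were smaller than 3 percentage points. The median difference of the 17 islands was -0.663 percentage points, against 0 for all islands. Of the tiles, 21 had a higher and 27 a lower mean, with a median of -0.678 percentage points, against 0 over all tiles.

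**Figure D1:**
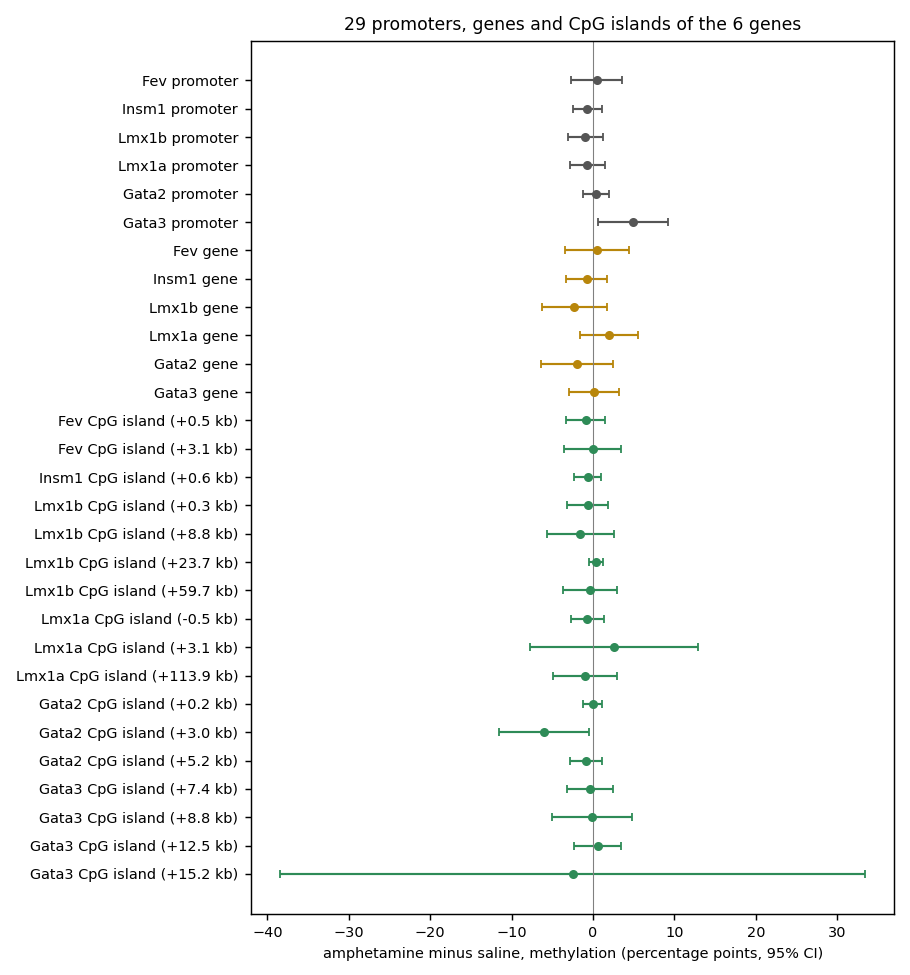
Difference in methylation between the groups (Amphetamine minus Saline, percentage points, horizontal axis) for the 6 promoters (grey), 6 genes (ochre) and 17 CpG islands (green, with the distance of the centre from the gene start); bars are 95% confidence intervals from limma. The intervals of the Gata3 promoter and of the Gata2 island at +3.0 kb leave out 0, and 14 of the 17 islands lie to the left of it. All intervals take the variance as equal in both groups, while the SDs at the Gata3 promoter were 4.81 and 0.439.

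Fev (ENSMUSG00000055197) lay at chr1:74881509-74885419 on the minus strand and was almost free of methylation from end to end. Its promoter row (chr1:74884920-74886919) was at 1.90% ± 3.12 (SD, n = 5) in the Amphetamine group and 1.46% ± 1.40 (SD, n = 6) in the Saline group. The ranges were 0 to 7.39% and 0 to 3.73%, with the 0 shared by both groups and a single treated mouse above every control. The difference was 0.442 percentage points (95% CI -2.69 to 3.58). The gene row was at 3.43% ± 1.21 and 2.94% ± 3.67, a difference of 0.492 points (95% CI -3.50 to 4.48). The island over exons 1 and 2 was at 0.816% and 1.71%, and the island within exon 3 at 3.05% and 3.06%. Fev has 3 exons, so low methylation reached from the promoter to the last exon, as its 2 tiles also showed (1.90% against 1.46%, and 3.92% against 3.54%). The tile at the start and the promoter row gave identical values, and so hold the same CpGs.

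Insm1 (ENSMUSG00000068154), at chr2:146221921-146225020 on the plus strand, has a single exon. Its promoter row (chr2:146220421-146222420) was at 1.02% ± 0.803 in the Amphetamine group (0.260 to 2.29%) and 1.69% ± 1.43 in the Saline group (0.282 to 4.21%). The ranges overlapped over most of their length, and the difference was -0.674 points (95% CI -2.44 to 1.09). Its gene row was at 1.32% ± 0.979 and 2.09% ± 1.81 (95% CI of the difference -3.33 to 1.78). The single island, which covers the start and 1928 bases of the exon, was at 1.2% and 1.86%. The tile with the start was at 1.18% and 2.09%. In the tile behind the gene (chr2:146225001-146230000) methylation was 55.0% and 71.5%, with reads in 4 of 6 control mice and a 95% CI from -62.0 to 29.1 points.

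Lmx1b (ENSMUSG00000038765) covered chr2:33560965-33640511 on the minus strand, and its start was low in both groups. The promoter row (chr2:33640012-33642011) was at 3.03% ± 1.63 in the Amphetamine group (0.879 to 5.01%) and 3.96% ± 1.39 in the Saline group (1.99 to 5.61%). The ranges overlapped, and the difference was -0.929 points (95% CI -3.05 to 1.19). The gene row was at 20.8% ± 1.35 (19.1 to 22.4%) and 23.1% ± 3.64 (18.01 to 27.3%). All treated mice lay inside the control range, and the difference was -2.33 points (95% CI -6.32 to 1.67). The antisense gene C130021I20Rik begins at chr2:33641193 on the other strand, so the promoter row holds the start of both.

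The Lmx1b locus was read in 14 tiles, of which 9 had a lower and 5 a higher mean in the Amphetamine group. Windows were absent between the tiles at 23.0 and 33.0 kb, at 38.0 and 48.0 kb, and at 63.0 and 73.0 kb. From the start into the gene, the first 3 tiles were low. The tile with the start (chr2:33640001-33645000) was at 4.66% and 5.56%, the next one at 4.97% and 9.81%, and the tile centred 8.01 kb into the gene at 2.62% and 5.32%. The means of all 3 were lower in the treated mice, with differences from -4.84 to -0.900 points, and none of the 95% CIs left out 0. In the second of them the control mice ran up to 20.1% and the treated mice up to 7.32%. Methylation then rose to 32.6% and 37.0% at 13.0 kb and to 90.7% and 86.4% at 18.01 kb.

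The tile centred 23.0 kb into the gene broke this rise (chr2:33615001-33620000, wholly inside intron 2, GENCODE transcript Lmx1b-201). It was at 3.91% ± 3.23 (SD, n = 5) in the Amphetamine group and 12.3% ± 4.75 (SD, n = 6) in the Saline group. Treated mice ran from 1.47 to 9.27% and control mice from 5.40 to 16.8%, so the ranges overlapped between 5.40 and 9.27%. The difference was -8.40 points (95% CI -14.2 to -2.56), and limma's adjusted p over all tiles was 0.965. Without any single mouse the difference stayed between -9.78 and -7.50 points. The tile had 445.2 reads in the mean treated mouse and 320.8 in the mean control mouse, with at least 188 in each. The CpG island inside the tile, printed above, was close to 0 in both groups. It was at 0 in all 6 control mice and at 0.353% in the treated mice, of which 4 of 5 were at 0. The island had a mean of 157.6 reads in the treated and 87.2 in the control mice, and the part of its share of the reads in the difference of the tile was not tested.

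Further into the gene the Lmx1b tiles were mostly methylated and the signs of the differences were mixed. The tiles at 33.0 and 38.0 kb were at 70.9% and 72.3%, and at 66.7% and 63.6%. The tile at 48.0 kb was at 68.9% and 56.4%, and the tile at 53.0 kb at 39.2% and 43.4%. A second dip stood at 58.0 kb, where a CpG island of intron 2 lies, with 17.7% and 17.4% in the tile and 2.27% and 2.61% in the island. The last 3 tiles, at 63.0, 73.0 and 78.0 kb, were at 42.2% and 44.4%, 93.3% and 72.2%, and 73.6% and 78.2%. The largest of these differences, 21.1 points at 73.0 kb, had a 95% CI from -6.04 to 48.3 and a mean coverage of 36.4 and 38.5 reads. The other islands of Lmx1b, at the start and 8.83 kb into the gene, were at 3.05% and 3.71%, and at 2.68% and 4.24%.

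**Figure D2:**
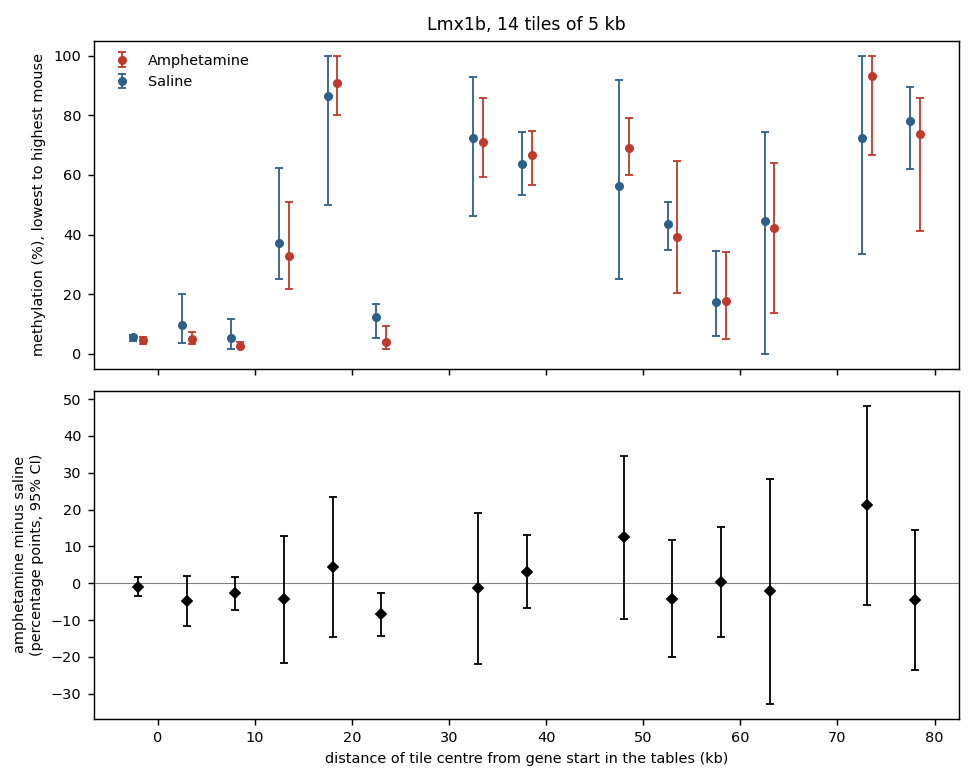
Methylation of the 14 Lmx1b tiles by group (top, percent, dot for the mean and bar from the lowest to the highest mouse) and the difference Amphetamine minus Saline (bottom, percentage points with 95% confidence interval), by distance of the tile centre from the gene start in kb. The interval of the tile at 23.0 kb, with 3.91% against 12.3%, leaves out 0, and the others hold it.

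Lmx1a (ENSMUSG00000026686), at chr1:167689237-167848741 on the plus strand, was the most methylated of the 6 genes over its length. Its promoter row (chr1:167687737-167689736) was at 1.89% ± 1.29 in the Amphetamine group (0.386 to 3.56%) and 2.59% ± 1.71 in the Saline group (0.801 to 4.53%). The difference was -0.701 points (95% CI -2.87 to 1.47). The CpG island before the start had the same values as the promoter row, and so the same CpGs. The gene row was at 45.0% ± 3.05 (40.2 to 47.6%) and 43.0% ± 1.85 (40.6 to 46.2%), with a difference of 1.97 points (95% CI -1.58 to 5.52).

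Low methylation at Lmx1a ended within 10 kb. The tiles at -1.74 and 3.26 kb were at 2.13% and 2.81%, and at 7.26% and 4.33%, and the tile at 8.26 kb was at 90.5% and 94.0%. The island at 3.05 kb was at 7.01% in the treated mice (2.10 to 9.53%) and 4.43% in the controls (0 to 25.6%), where a single control mouse held most of the sum. A low place also lay deep in the gene, 114 kb from the start in intron 3, with an island at 0.806% and 1.74% and a tile around it at 16.3% and 22.3%. Of the 19 Lmx1a tiles, 10 had a higher and 8 a lower mean in the treated mice. The tile with the smallest p (chr1:167825001-167830000) was at 80.5% and 84.2% (95% CI of the difference -8.30 to 1.04). The largest difference among tiles read in all mice, 11.5 points at chr1:167740001-167745000 (93.4% and 81.8%), had a 95% CI from -12.2 to 35.3.

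Gata2 (ENSMUSG00000015053), at chr6:88193891-88207030 on the plus strand, has a pair of RefSeq starts that are 4773 bases apart. The promoter row (chr6:88192391-88194390), at the first of them, was at 2.96% ± 1.31 in the Amphetamine group (1.86 to 5.10%) and 2.60% ± 0.864 in the Saline group (1.11 to 3.49%). The gene row was at 8.90% ± 2.95 (4.75 to 11.8%) and 10.9% ± 3.51 (8.07 to 17.5%), with a difference of -1.97 points (95% CI -6.44 to 2.51). The islands at the starts were low in both groups, with 2.71% and 2.75% at the first and 1.29% and 2.11% at the second.

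Between the Gata2 starts, in intron 1 of transcript Gata2-202, lay the CpG island with the smallest p of the 17 (chr6:88196377-88197401). It was at 4.06% ± 3.22 (SD, n = 5) in the Amphetamine group and 10.1% ± 4.95 (SD, n = 6) in the Saline group. Treated mice ran from 0.240 to 8.86% and control mice from 2.78 to 15.7%, so that the ranges overlapped over most of the treated values. The difference was -6.00 points (95% CI -11.5 to -0.474), and limma's adjusted p over all islands was 0.923. Without any single mouse it stayed between -7.45 and -4.87 points. The 5-kb tile around it and the second start was at 3.43% and 5.11%. The next tile (chr6:88200001-88205000, exons 3 to 5) was at 17.5% and 24.9% (95% CI of the difference -20.1 to 5.16). The tile at the end of the gene was at 93.9% and 76.1%, with a 95% CI from -14.7 to 50.4 points.

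Gata3 (ENSMUSG00000015619) ran over chr2:9857078-9890034 on the minus strand in the deposited table, whose start is that of an upstream transcript (Gata3-202). The RefSeq start lies 11.4 kb downstream of it, at chr2:9878600. The promoter row therefore describes the upstream start (chr2:9889535-9891534) and not the RefSeq promoter printed above. The gene 9230102O04Rik begins at chr2:9889540 on the same strand, so the promoter row holds the start of both.

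The Gata3 promoter row was the promoter with the smallest p of the 6. It was at 5.11% ± 4.81 (SD, n = 5) in the Amphetamine group and 0.179% ± 0.439 (SD, n = 6) in the Saline group. The summaries of the treatment groups and of the sexes together fix the value of each mouse here. Treated females were at 12.8, 6.67 and 2.96%, and treated males at 2 and 1.08%. Of the controls, 5 mice were at 0 and a female was at 1.08%. The lowest treated mouse thus equalled the highest control, and the other 4 treated mice were above all controls. The difference was 4.93 points (95% CI 0.665 to 9.19), with an adjusted p of 0.958 in limma. This interval takes the variance as equal in both groups, although the SDs were 4.81 and 0.439 and 5 controls were at 0. An interval without that assumption was not calculated. The difference was 7.13 points within females (3 against 3 mice) and 1.54 points within males (2 against 3 mice), which was not tested. Leaving out any single mouse kept it between 2.997 and 5.94 points. Coverage was 418 reads in the mean treated mouse and 295.2 in the mean control, and the lowest control mouse had 20 reads.

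In the other Gata3 regions the 95% CI of the difference held 0. Its gene row was at 16.7% ± 1.59 (14.5 to 18.5%) and 16.6% ± 2.30 (13.4 to 18.6%), a difference of 0.131 points (95% CI -2.94 to 3.20). The tile with the table's start (chr2:9890001-9895000) was at 2.12% and 0.269%, and the next tile into the gene at 4.89% and 2.63%. The tile with the RefSeq start (chr2:9875001-9880000) was at 6.99% and 7.39%, and the tile between them at 4.50% and 5.11%. Of the 4 islands, those at 7.36, 8.77 and 12.5 kb from the table's start were at 2.04% and 2.39%, 7.91% and 8.03%, and 1.33% and 0.735%. The island over exon 3 (chr2:9874642-9874956) was at 32.0% and 34.5%, with treated mice from 0 to 60.1% and control mice from 0 to 80.0%. From the tile at 17.5 kb to the last at 32.5 kb, methylation rose from 42.7% and 46.8% to 85.2% and 88.3%.

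**Figure D3:**
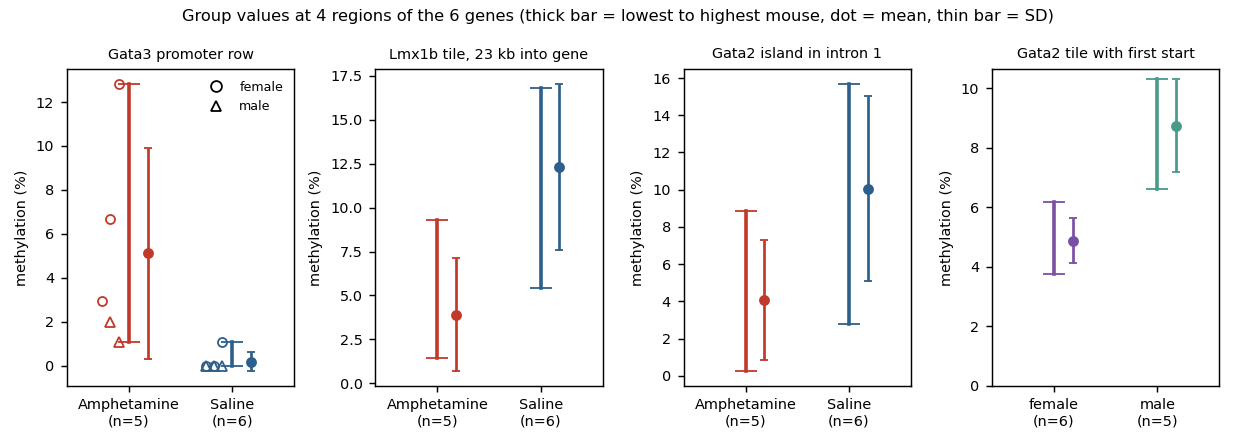
Methylation (percent, vertical axis) at the Gata3 promoter row, the Lmx1b tile 23 kb into the gene and the Gata2 island in intron 1, by treatment, and at the Gata2 tile with the first start, by sex. Thick bars run from the lowest to the highest mouse, filled dots with thin bars are means and SDs, and open symbols in the first panel are single mice; the groups touch at 1.08% in Gata3, overlap in Lmx1b and the Gata2 island, and are apart between the sexes (3.77 to 6.17% and 6.60 to 10.3%).

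All 6 genes shared a stretch of low methylation around the start, of unequal length. In the control mice, the tile with the start was under 10% in each of them, as it was in 47.8% of 20508 genes. Counting neighbouring tiles under 10%, the stretch was 10 kb long in Lmx1a and Insm1, 15 kb in Fev, Lmx1b and Gata2, and 25 kb in Gata3. A stretch of 15 kb or more, seen in 4 of the 6, was found in 1.91% of all genes. Tiles without reads end a stretch, which can make a length too short. Each tile counts in full even where reads cover only part of it, which can make a length too long. At Fev, for instance, the tile with the start held the same CpGs as the promoter row but counts whole. These lengths are therefore neither lower nor upper limits, and a stretch can reach into a neighbouring gene. Over the gene rows of the control mice, Insm1 (2.09%) and Fev (2.94%) were lowest, followed by Gata2 (10.9%), Gata3 (16.6%), Lmx1b (23.1%) and Lmx1a (43.0%). The ranges of the control mice overlapped between each pair of neighbours in this order except the last, where every mouse was higher at Lmx1a than at Lmx1b. The median of all genes was 52.7%. The 3 named regions with an unadjusted p under 0.05 by treatment in limma had group means between 0.179 and 12.3%. All 6 promoter rows and most islands were that low in both groups, so no pattern of location can be read from them.

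**Figure D4:**
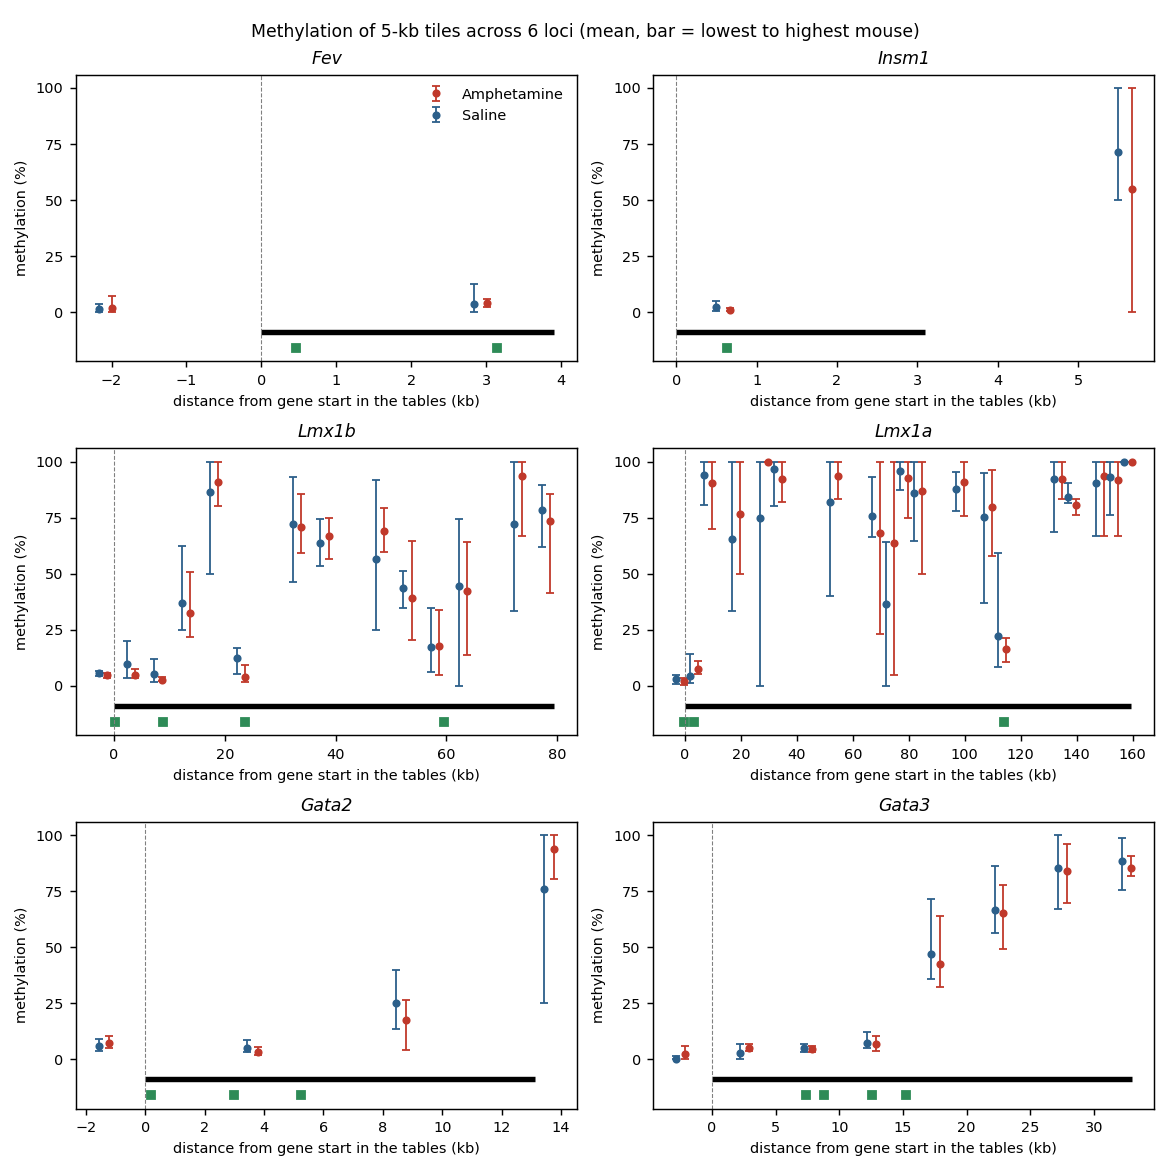
Methylation of the 5-kb tiles (percent, dot for the mean, bar from the lowest to the highest mouse) at the 6 loci by distance of the tile centre from the gene start in the tables in kb, for the Amphetamine (red) and Saline (blue) groups. The black line is the gene and green squares are CpG islands; the tiles at the starts are under 10% in both groups, and no tile with reads in all mice has the groups apart.

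The same regions were compared between 6 female and 5 male mice. These are the same 11 mice, so this comparison is not independent of the treatment. No region passed an adjusted p under 0.05 in limma, in 6 promoters, 6 genes, 17 CpG islands and 49 tiles. Over all regions, 0.564% of promoters, 0.373% of genes, 1.09% of CpG islands and 0.076% of tiles passed. At an unadjusted p under 0.05 there were 2 tiles, in Gata2 and in Lmx1b, against 5.59% of all tiles. There were 0 promoters, 0 genes and 0 islands, against 6.07%, 6.5% and 6.65% of all regions of these kinds. All these shares include the sex chromosomes, on which none of the 6 genes lies. Shares over the other chromosomes alone were not calculated.

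The Gata2 tile with the first start (chr6:88190001-88195000) was at 4.88% ± 0.771 in females (3.77 to 6.17%) and 8.74% ± 1.56 in males (6.60 to 10.3%). Every female was below every male. Over all tiles with reads in all mice, those of the sex chromosomes included, the sexes were apart, in either direction, in 0.626%. The difference was -3.86 points (95% CI -6.76 to -0.966, adjusted p 0.801 in limma). By treatment the same tile was at 7.26% and 6.11%. The Lmx1b tile at 58.0 kb, which holds the second dip, was at 10.9% ± 4.61 in females (4.98 to 15.4%) and 25.6% ± 11.2 in males (8.59 to 34.6%). The ranges overlapped, and the adjusted p was 0.781. By treatment it was at 17.7% and 17.4%. The Lmx1b tile at 23.0 kb was at 8.29% in females and 8.73% in males.

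No other gene of the serotonergic and islet programmes was called by treatment either. Of 20 further genes of the serotonin neuron programme, 17 had a promoter row and 20 a gene row, and none was called. Their median difference was 0 points in promoters and 0.047 in genes, against 0 and -0.086 over all regions. The smallest p among their promoters was that of Slc18a2, which encodes the vesicular monoamine transporter, at 4.13% in the Amphetamine group (3.16 to 4.63%) and 0.224% in the Saline group (0 to 0.870%). All treated mice were above all controls in this 1 of the 17 promoters. Over all promoters read in all mice, groups were apart in 0.395%. The adjusted p of Slc18a2 was 0.0591 in limma and ran from 0.0124 to 0.486 over the other settings of the test, so the call depends on the setting. Among their gene rows it was Maob, which encodes a monoamine-degrading enzyme, at 80.0% and 85.4%.

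Of 18 islet endocrine lineage genes, 16 had a promoter row and 18 a gene row, none was called by treatment, and the median differences were 0.217 and 0.018 points. The smallest p was that of Neurod1, a bHLH factor of endocrine differentiation that is also among the endocrine markers below, among promoters (13.1% and 5.07%, adjusted p 0.958), and that of Pax4, a factor of beta-cell fate, among genes (77.6% and 93.3%, adjusted p 0.984). Of 23 relatives of the 6 genes (other GATA, LIM-homeodomain, ETS and Insm genes), 20 had a promoter row and 23 a gene row. None was called, and the median differences were -0.324 and -0.134 points. The smallest p was that of Ets2 among promoters (1.23% and 3.80%) and of Ets1 among genes (35.6% and 39.4%), both ETS factors.

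Marker genes of the cell types that whole pancreas could hold were not called by treatment in either table. Median promoter methylation in the Amphetamine and Saline groups was 53.3% and 46.7% over 7 acinar markers, 5.15% and 3.35% over 9 endocrine markers, and 79.6% and 74.0% over 6 leukocyte and haematopoietic markers. It was 61.8% and 60.7% over 8 endothelial markers, 13.3% and 16.8% over 6 mesenchymal markers, and 2.83% and 7.14% over 7 markers of neural crest and nerve. The median of the differences, in the same order of lists, was -0.368, 0.831, 5.60, 0.506, -4.56 and -0.445 points, so that for the acinar markers its sign was opposite to that of the medians of the groups. In the gene rows the medians were 67.0% and 58.2% over 11 acinar, 34.3% and 31.3% over 10 endocrine, 60.3% and 53.1% over 9 leukocyte, 73.4% and 77.2% over 8 endothelial, 53.3% and 50.9% over 7 mesenchymal, and 17.4% and 24.8% over 7 neural markers. The median of the differences there was 0.784, 1.02, 1.22, 0.049, 0.549 and -0.068 points in the same order, smaller than the gaps between the group medians, and for the endothelial markers of the opposite sign. The part of cell composition in the differences of the 6 genes was not tested.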

How the data were processed

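RRBS of whole pancreas from 11 mice was used as deposited, in 8 tables: promoters, genes, CpG islands and 5-kb tiles for amphetamine against saline and for female against male. Per the study's methods, reads were mapped by the authors to the mm10 genome using Bismark (run through NextFlow methylseq), and RnBeads then gave a level for each region, with limma for the authors' own tests. The submitters' processing notes also name methylKit. Versions are not given in the sources used here. In the deposited tables, the methylation of a group is the authors' mean fraction over its mice, with SD, lowest and highest mouse, and it is printed here as a percent. The coverage signal was deposited as a mean per group and was not scaled for depth. Intervals cover the spread between mice. Other deposited columns give the number of mice without a value. The authors' columns of differences, log2 quotients, p-values, adjusted p-values and ranks were not used. No file held values per mouse, so total depth per mouse was not analysed here.

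For each region, the difference of the group means was tested from means, SDs and numbers of mice with limma 3.58.1 (R 4.3.3), as a two-sided moderated test with variances squeezed over the whole table and Benjamini-Hochberg adjustment over that table. The variance of a region was pooled over both groups, that is, taken as equal in them. A region was called at an adjusted p under 0.05. The fit from group summaries was tested on simulated promoter values, drawn as normal with equal variance in both groups and no missing mice. Unequal SDs, mice tied at 0 and missing mice were not covered by it. Groups were those of the labels, and the test across all regions, made from group summaries, could hold no covariate and was not adjusted for sex. Leaving out a mouse was bounded from the lowest and highest mouse of each group. Positions, exons and transcripts are from GENCODE vM21 and RefSeq on GRCm38, and chromosome lengths were checked against the tiles. Promoter rows run from 1500 bases before to 500 after a start. The named regions were each promoter, gene and island row of the 6 genes, the tile at the start, the tile with the smallest p and the one with the largest difference in all mice, and all Lmx1b tiles; of the other lists, the gene with the smallest p. The members and lists were chosen with earlier results of these data known. Solving the values of single mice for the Gata3 promoter row was added after the data were seen. Python 3.11.15, pandas 2.3.3 and matplotlib were used.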

Additional observations from a re-analysis of the deposited data

Results flagged for a closer look

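In 14 of 109 groups of mice at the named regions, the highest or lowest mouse stood apart from the rest by Dixon's criterion, with the gap to the nearest other mouse bounded from the mean, SD, lowest and highest value. The criterion marks about 1 in 20 groups of independent, normally distributed values. Here the gaps were bounded, levels near 0 hold many tied mice, and overlapping regions share reads. The count of 14 can therefore not be set against that rate.

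At Fev, 1 treated mouse was at 7.39% in the promoter row and in the tile with the same CpGs, where no other treated mouse was above 1.49%. A treated mouse was also at 3.78% in the island at the Fev start. At the Gata3 upstream promoter row, 1 control mouse was at 1.08% and 5 were at 0, and in the tile with that start 1 control mouse was at 1.61%. In the Gata3 islands, 1 treated mouse was at 6.67% with 4 at 0 (12.5 kb from the start), and 1 was at 4.73% (7.36 kb).

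At Lmx1b, 1 treated mouse was at 1.76% in the island 23.7 kb into the gene, with 4 at 0, and 1 was at 0.265% in the island at 8.83 kb, below the others. In Lmx1b tiles, 1 treated mouse was at 3.91% at 8.01 kb, 1 treated mouse at 66.7% at 73.0 kb, and 1 control mouse at 50% at 18.01 kb. At Lmx1a, 1 control mouse was at 25.6% in the island at 3.05 kb, where no other control was above 0.779%, and 1 at 8.68% in the island at 114 kb, with 4 at 0.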

How the results depend on the processing

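The counts of called regions of the 6 genes were 0 under a prior variance with a trend and under robust empirical Bayes. They stayed at 0 in regions read in all 11 mice and at a mean coverage of at least 10 or 30. They were also 0 without chromosomes X and Y and at an adjusted p under 0.1. The study's thresholds, and islands or tiles at least 50% within the locus, only narrowed a count that was already 0 and could not change it. At an unadjusted p under 0.05 the counts were 1 promoter, 1 CpG island and 1 tile. The count for sex in promoters and genes stayed at 0 in all settings run. The count of regions with the treatment groups apart was also 0 when regions not read in all mice were taken in. Its coverage and locus settings only narrowed that count and could not change it. Over the refits the adjusted p of the 55 named regions ran from 0.913 to 1. Leaving out any 1 mouse could turn the sign of the difference, or bring it to 0, at 23 of the 55 named regions. At the other 32 it could not. The Gata3 promoter row, the Lmx1b tile at 23.0 kb and the Gata2 island in intron 1 were among the latter. No paired analysis was possible because the tables hold group summaries and the replicate numbers do not pair mice. With 5 and 6 mice and low coverage in tiles away from islands, the median half-width of the 95% CI was 14.3 percentage points in tiles and 2.15 in promoters of the 6 genes, and both widths are descriptions, not limits of detection.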
